A study of Mus musculus with 3 samples.

Results

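The Toll-like receptors Tlr1 to Tlr9 and the endotoxin co-receptor Cd14 were examined in mesangial cells sorted from adult mouse kidney. These 10 genes were taken as a whole family and not picked by their values, though earlier results of these data were known. Of them 9 were measured, each by 1 probe set with a single gene symbol. Tlr5, the flagellin receptor, had no such probe set and is not analysed here. The 9 genes stand among 18685 named genes. All 3 samples form 1 group, adult male CD-1 mice at stage TS28 that carry the transgene Tg(Meis1-EGFP)FO156Gsat, in which Meis1 regulatory sequence on a bacterial artificial chromosome drives a green fluorescent protein. Each sample was 1 kidney, unpooled, whose cortical glomeruli were isolated and trypsinised before fluorescent cells were sorted, and the source is given as glomerular and extraglomerular mesangium. There was no control population, so no test between conditions was possible. Whether the 3 kidneys belonged to different mice is not stated, and the spread between samples may be partly technical.

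Toll-like receptors are membrane proteins that bind molecules shared by many microbes, or released by damaged tissue, through a leucine-rich repeat domain. They signal through a cytoplasmic TIR domain that recruits adaptor proteins and leads to activation of NF-kB and interferon regulatory factors. Tlr1, Tlr2, Tlr4, Tlr5 and Tlr6 act at the cell surface, where Tlr2 pairs with Tlr1 or Tlr6 to bind lipopeptides and Tlr4 binds endotoxin together with Ly96 and Cd14. Tlr3, Tlr7, Tlr8 and Tlr9 bind nucleic acids in endosomes. Mesangial cells are pericyte-like cells that support the glomerular capillaries, and in culture they are known to make chemokines when exposed to such ligands.

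Tlr4, Tlr3 and Cd14 lay above background in every sample, and Tlr1, Tlr2, Tlr6, Tlr7, Tlr8 and Tlr9 did not. The background of each array was the 95th percentile of 1269 probe sets of families that kidney cells are thought not to express, namely keratin-associated proteins and the receptors for odours, pheromones and trace amines. This silent-gene threshold was 7.48, 7.46 and 7.40 in samples 1, 2 and 3, on the scale of the deposited log2 signal. A gene was called above it only if it passed on all 3 arrays. By this rule 3 of the 9 genes (33.3%) were above, against 58.0% of all named genes. The median of their smallest margins over the 3 arrays was -0.16, against 0.29 for all named genes. With the threshold raised by 1, 3 of 9 again passed, close to the 32.7% of all named genes. The rule lets some silent genes pass by construction, since the threshold is a percentile of their own probe sets. Of the 1253 silent genes, 59 (4.71%) passed the threshold and 12 (0.958%) the raised one. Probe sets differ in affinity, so each value is set against the threshold or against the same gene in another sample, and genes are not ranked by amount.

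**Figure D1:**
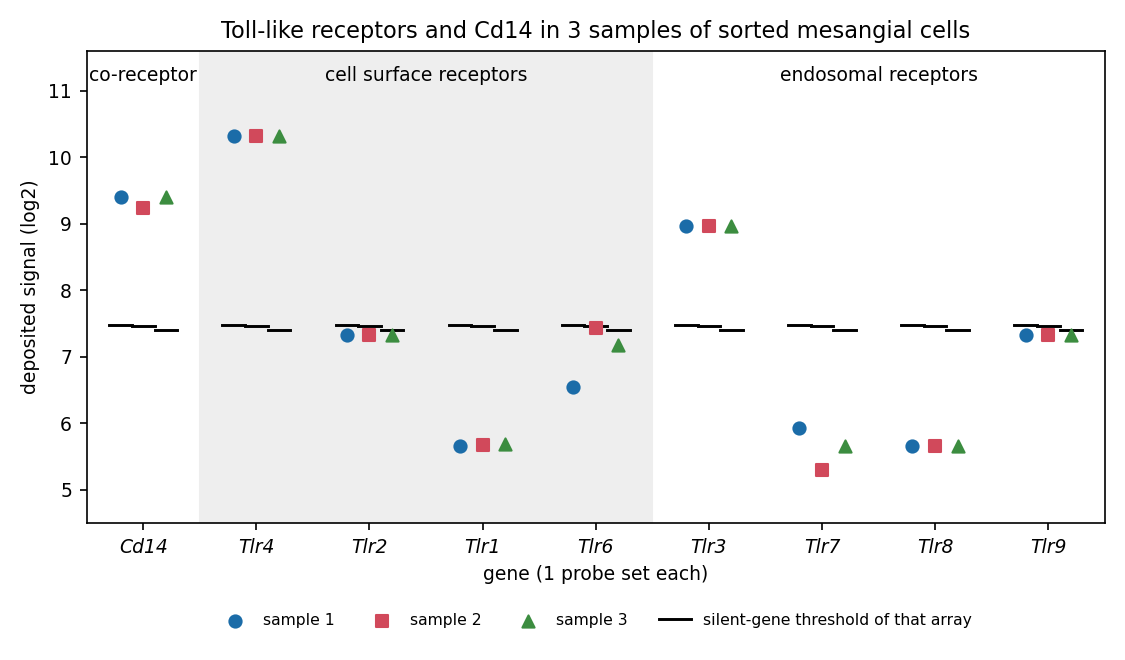
Deposited log2 signal (vertical axis) of Cd14 and 8 Toll-like receptors (horizontal axis) in samples 1 (circles), 2 (squares) and 3 (triangles), with a black bar for the silent-gene threshold of each array. Cd14, Tlr4 and Tlr3 lie above their bars in every sample, Tlr2 and Tlr9 lie just below theirs, and Tlr6 is the gene whose samples lie farthest apart.

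Tlr4, the receptor for bacterial endotoxin, had a log2 signal of 10.31 in each of the 3 samples. The value exceeded the threshold by 2.83, 2.85 and 2.91 in samples 1, 2 and 3. None of the 1253 silent genes had a mean as high. The 3 samples did not differ in the deposited value, which is identical to every decimal given.

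Cd14, which hands endotoxin to the complex of Tlr4 and Ly96, had 9.41, 9.23 and 9.41 in samples 1, 2 and 3. Its mean was 9.35 ± 0.10 (SD, n = 3). It passed the threshold by 1.93, 1.77 and 2.00, and 5 silent genes (0.399%) had a mean at or above it. Sample 2 was the lower one, by 0.17 from the mean of the other samples, a gap far smaller than the distance from the threshold.

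The other cell surface receptors were at background. Tlr2, the partner shared by the lipopeptide receptors, had 7.32 in each sample and fell short of the threshold by a margin of -0.16, -0.14 and -0.08 in samples 1, 2 and 3. Of the silent genes, 82 (6.54%) had a mean at or above that of Tlr2. Together with Tlr9 it was the gene whose call turned when the threshold was set at the 90th percentile. Tlr1 had 5.66, 5.67 and 5.68, with a mean of 5.67 ± 0.01 (SD, n = 3), a level that 46.6% of silent genes reached. Tlr6 had 6.55, 7.43 and 7.17, with a mean of 7.05 ± 0.45 (SD, n = 3). All 3 values of Tlr6 lay below their thresholds, sample 2 by a margin of only -0.03 and sample 1 by -0.93. Tlr1 and Tlr6 are related and adjacent genes, with 0 protein-coding genes between them in the RefSeq table of GRCm38.p6, and whether their probe sets share signal was not tested.

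Among the endosomal receptors only Tlr3 lay above the threshold, as 1 of the 4 measured, against 58.0% of all named genes. The count was the same for the cell surface receptors, with Tlr4 as 1 of the 4 measured. Tlr3, which binds viral RNA duplexes and signals through the adaptor Ticam1, had 8.96 in each of the 3 samples. It exceeded the threshold by 1.48, 1.50 and 1.56, and 7 silent genes (0.559%) had a mean at or above it. Tlr7, a receptor for viral RNA that is not in duplex form, had 5.92, 5.30 and 5.66, with a mean of 5.63 ± 0.31 (SD, n = 3). Tlr8, its neighbour on the X chromosome and a receptor of related specificity, had 5.66 in each sample. Both lay within the body of the silent genes, of which 48.0% had a mean at or above that of Tlr7 and 47.2% at or above that of Tlr8. Tlr9, the receptor for unmethylated CpG DNA, had 7.32 in each sample, at the same margins below the threshold as Tlr2.

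The receptors found in mouse but not as working genes in human were also looked at. Tlr12, which recognises a parasite protein, had 8.10 in sample 1 and 8.0 in samples 2 and 3, and it passed the threshold in each sample, by at least 0.54, but not the raised threshold. Tlr13, which recognises bacterial ribosomal RNA, had 5.93 in each sample and did not pass. Tlr11 is not analysed here.

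Identical values limit what the spread can say. Of the 9 genes, 5 had a single value on all 3 arrays (Tlr2, Tlr3, Tlr4, Tlr8 and Tlr9). This was so for 51.1% of all named genes, for 39.4% of those above the threshold and for 67.3% of those not above it. The deposited value of Tlr2 and Tlr9 was moreover carried by 36, 39 and 33 probe sets on arrays 1, 2 and 3, and that of Tlr8 by 33, 38 and 35. The value of Tlr7 in sample 3 was that same value, held by 35 probe sets. The value of Tlr6 in sample 3 was held by 43 probe sets. By contrast Tlr4 and Cd14 shared their values with no other probe set on any array, and Tlr3 shared its value with 1 other probe set on array 2 only. An SD of 0 therefore does not mean measurement without error, and the coincidence of Tlr2 and Tlr9 gives no basis for comparing them.

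Of the genes that varied, Tlr6 had an SD that 0.947% of all named genes equalled or exceeded, and Tlr7 one that 2.37% did. Sample 1 was the low one for Tlr6, by 0.75 below the mean of the other samples (difference -0.75), and sample 2 was the low one for Tlr7. Both genes were below the threshold in every sample, so the differences lie in the range of the silent genes. With 3 samples of 1 group there is no test of these differences.

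The proteins that help Toll-like receptors reach and hold their ligands were partly above background. Of 11 such genes 7 lay above the threshold (63.6%) and 4 above the raised one (36.4%), shares near the 58.0% and 32.7% of all named genes. The endoplasmic reticulum chaperone Hsp90b1, which folds most Toll-like receptors, had 13.04 ± 0.03 (SD, n = 3). Its co-chaperones Cnpy4 and Cnpy3 had 8.92 ± 0.10 and 8.87 ± 0.19. Ly86, the partner of the receptor homologue Cd180, had 5.59 in each sample and was not above the threshold. Further genes of this list were chosen after their values were seen, for their role beside the receptors. Ly96, which binds endotoxin on Tlr4, had 8.29, 7.69 and 7.62 and passed in every sample, in sample 3 by 0.21. Sample 1 was the high one. Unc93b1, which carries the nucleic acid receptors to endosomes, had 8.55 in each sample and also passed the raised threshold. Cd180 itself had 7.61, 0.14 above the threshold at its closest. The endotoxin-binding protein gene Lbp, at 7.35, and the scavenger receptor gene Cd36, at 7.00 ± 0.07, were not above it.

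Of the 5 TIR adaptors 4 were above the threshold (80.0%), against 58.0% of all named genes, but only Myd88 passed the raised one (20.0%), against 32.7%. Myd88, the adaptor of nearly all Toll-like receptors, had 9.07 in each sample. Tirap, which bridges Myd88 to Tlr2 and Tlr4, had 8.32, 7.60 and 7.58, with sample 1 high. Ticam1, the adaptor of Tlr3, had 7.58 in each sample and passed by as little as 0.10. Ticam2, which links Ticam1 to Tlr4, had 7.61 and passed by as little as 0.13. Both values were less than 1 above the threshold and so close to background. Sarm1, a TIR protein best known from axon degeneration, had 6.38 and did not pass.

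**Figure D2:**
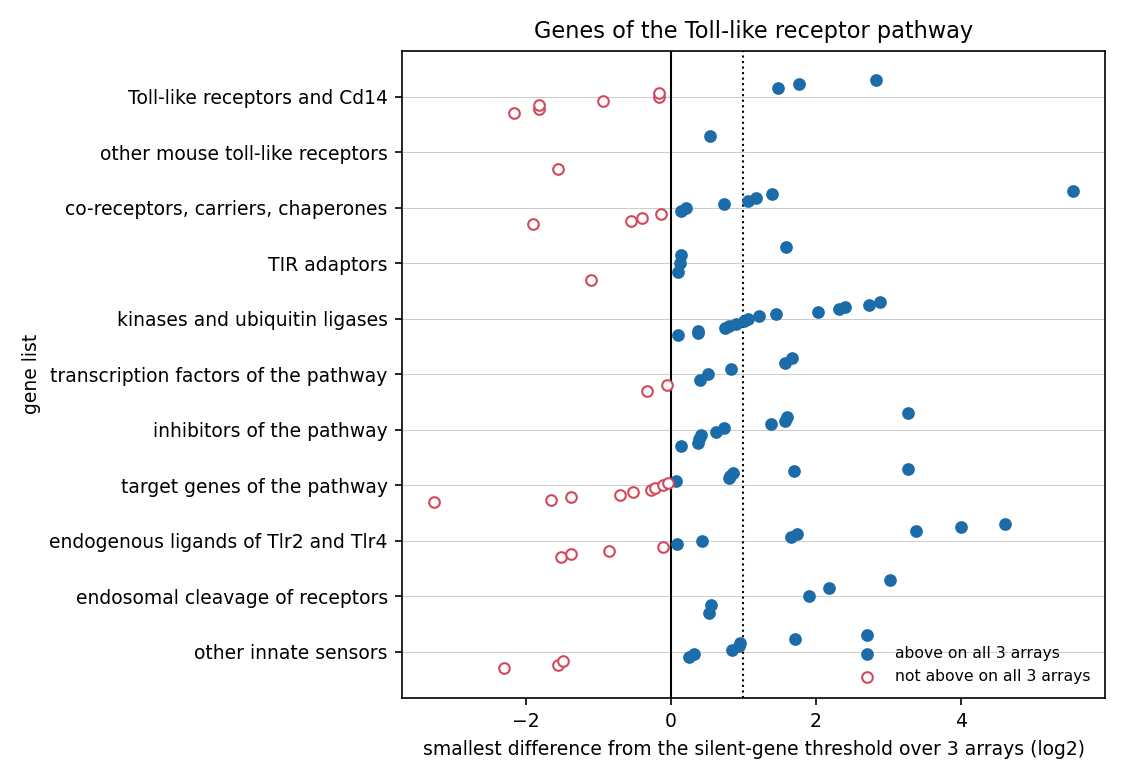
Smallest difference between a gene's deposited log2 signal and the silent-gene threshold over the 3 arrays (horizontal axis), 1 point per measured gene, by gene list (vertical axis). The solid line marks the threshold and the dotted line the threshold raised by 1. All 15 kinase and ubiquitin ligase genes and all 10 inhibitor genes are filled points right of the solid line, while 6 of 9 receptor genes and 9 of 15 target genes are open points left of it.

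Over all the pathway lists, co-receptors and adaptors included, which count each gene once, 67 of 91 measured pathway genes (73.6%) were above the threshold, against 58.0% of all named genes, and 32 (35.2%) were above the raised one, close to the 32.7% of all named genes. Downstream of the adaptors the kinases and ubiquitin ligases lay above the threshold in 15 of 15 measured cases, against 58.0% of all named genes. Of these, 9 also passed the raised threshold (60.0%), against 32.7% of all named genes. Their median smallest margin was 1.07, against 0.29 for all named genes. The scaffold gene Tab2 had 10.39 ± 0.16 and Map3k7, the kinase it activates, 10.38 ± 0.07 (SD, n = 3 each). Ube2n, which builds the ubiquitin chains that activate Map3k7, had 9.51, 10.01 and 10.21, with sample 1 low. The member with the lowest mean, Ikbke, a kinase of interferon regulatory factors, had 7.59 and passed by 0.11. The receptor-proximal kinase Irak1 at 8.55, the ligase Traf6 at 8.77 ± 0.13 and the kinase Tbk1, which acts after Tlr3 and Tlr4, at 9.82 ± 0.01 were chosen after their values were seen. Irak4, Traf3 and Chuk are not analysed here.

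Of the 7 measured transcription factors 5 were above the threshold (71.4%) and 2 above the raised one (28.6%), against 58.0% and 32.7% of all named genes. Irf3, which drives interferon genes after Tlr3 and Tlr4, had 9.15 in each sample and the NF-kB subunit Rela had 9.06 ± 0.02. Nfkb2 had 8.31 in each sample. Irf5, at 7.15, and Relb were not above the threshold. Relb, chosen after its values were seen, had 7.49, 7.49 and 7.35 and missed it on array 3 only. Nfkb1 is not analysed here.

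Inhibitors of the pathway were all above the threshold, 10 of the 10 measured, against 58.0% of all named genes. At the raised threshold 4 passed (40.0%), near the 32.7% of all named genes. Cyld, which removes ubiquitin chains, had 10.73 ± 0.05 (SD, n = 3). Tollip, which binds the receptors and Irak1, had 9.09 and the ubiquitin ligase gene Rnf216 had 9.06, each the same in all samples. Tnfaip3, which is itself induced by NF-kB, had the lowest mean of the list at 7.63 and passed by 0.15.

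The target genes divided. Of 15 genes that Toll-like receptor signalling is known to induce, 6 lay above the threshold (40.0%) and 2 above the raised one (13.3%), against 58.0% and 32.7% of all named genes. The median smallest margin was -0.11, below that of all named genes. Vcam1, a leukocyte adhesion molecule, had 11.23, 10.74 and 11.04, with a mean of 11.00 ± 0.25 (SD, n = 3). The neutrophil chemokine gene Cxcl1 had 9.18, 9.18 and 9.14. Cxcl10, an interferon-induced chemokine gene, had 9.62, 10.39 and 8.21, with a mean of 9.41 ± 1.10 (SD, n = 3). Sample 2 was the high one and sample 3 the low one, so Cxcl10 passed the threshold in every sample but varied more than any receptor did. The cytokine gene Il6 had 4.22 in each sample and was not above the threshold. Of the remaining targets, picked with their values known, Tnf had 6.96, Ifnb1 5.83, Ccl2 7.42 ± 0.05 and Nos2 7.20, none of them above it. Ccl2 missed it on array 1 only, by a margin of -0.11. Icam1 had 8.30 and Il1b 7.55, which were above it, Il1b by as little as 0.07. Ccl2 and Il1b thus both lay close to the threshold.

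Of 11 measured genes whose products are reported as endogenous ligands of Tlr2 and Tlr4, 7 lay above the threshold (63.6%) and 5 above the raised one (45.5%), against 58.0% and 32.7% of all named genes. The matrix proteoglycan gene Bgn had 12.16 ± 0.08, the mitochondrial chaperone gene Hspd1 11.59 ± 0.14 and the reticulum chaperone gene Hspa5 11.10 ± 0.28 (SD, n = 3 each). S100a8, a calcium-binding protein gene of neutrophils, had 5.96 and was not above it. Tnc, a matrix glycoprotein gene chosen after its values were seen, had 9.67, 7.89 and 9.03, with sample 2 low. Other matrix genes of the list, likewise chosen, were lower against the threshold. Fn1 at 7.37 and Vcan at 6.10 were not above it, and Dcn passed by as little as 0.08.

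The proteases that trim endosomal receptors were above the threshold in 5 of 5 cases and above the raised one in 3 (60.0%), against 58.0% and 32.7% of all named genes. The cathepsin gene Ctsl had 10.52 ± 0.04, Ctsb 9.67 ± 0.01, Ctss 9.51 ± 0.25 and Ctsk 8.03 ± 0.05 (SD, n = 3 each). The legumain gene Lgmn had 9.38, 8.02 and 8.44, with sample 1 high.

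Of 10 measured innate sensors outside the family 7 were above the threshold (70.0%) and 2 above the raised one (20.0%), against 58.0% and 32.7% of all named genes. Ifih1, a cytoplasmic sensor of RNA duplexes like the ligand of Tlr3, had 10.27, 10.27 and 10.12. Sting1, an adaptor of DNA sensing, had 9.19 ± 0.02 and the DNA sensor gene Aim2 8.49 ± 0.11 (SD, n = 3 each). Casp1, the inflammasome protease gene, had 5.18 and was not above the threshold. The DNA sensor gene Cgas at 5.99 and Nlrp3 at 5.93, picked with their values known, were not above it either.

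**Figure D3:**
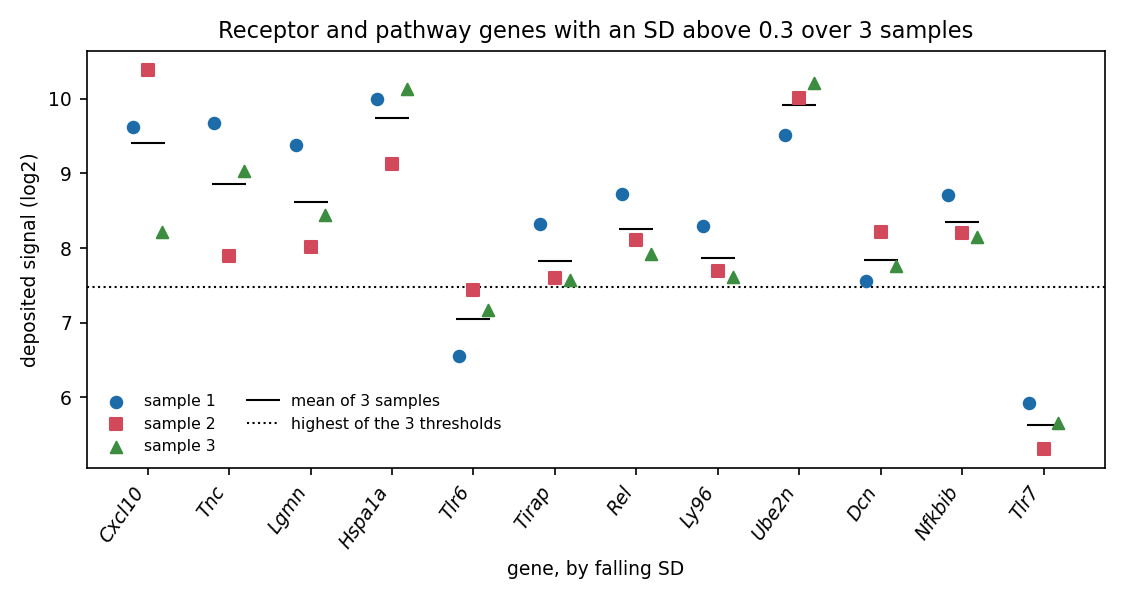
Deposited log2 signal (vertical axis) in samples 1, 2 and 3 for the 12 receptor and pathway genes with an SD above 0.3 (horizontal axis, by falling SD), with the mean as a short bar and the highest of the 3 thresholds as a dotted line. Tlr6 and Tlr7 are the members of the family shown, and all their points lie below the dotted line, while Cxcl10 spans from 8.21 to 10.39.

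Deviations of 1 sample by over 0.5 from the mean of the other samples were counted over the 91 measured pathway genes, which leave out the receptors and Cd14. In sample 1, 6 genes (6.59%) were that much higher, against 0.84% of all named genes, and these were Ly96, Tirap, Rel, Nfkbib, Tnc and Lgmn. In the same sample Ube2n was lower (1.1%, against 0.904% of all named genes), and among the receptors Tlr6 was. In sample 2, Cxcl10 and Dcn were higher (2.2%, against 0.514%), and Tnc, Lgmn and Hspa1a were lower (3.3%, against 0.605%). Among the receptors Tlr6 was higher in sample 2, by 0.57. In sample 3, Hspa1a was higher (1.1%, against 0.637%) and Cxcl10 lower (1.1%, against 0.46%). These genes were found after their values were seen. The shares rest on unlike bases, since 73.6% of the pathway genes but 58.0% of all named genes lay above the threshold. A single value on all 3 arrays was held by 39.4% of named genes above it and 67.3% of those not above it. Tlr4 and Tlr3 took no part in the deviations, with 1 value each. The mean signal of the 9 tubule markers was 7.66, 7.75 and 7.43 in samples 1, 2 and 3, and that of the 12 endothelial markers was 9.39, 9.33 and 9.43. Single tubule markers varied more than their list mean, with an SD of 0.75 for Kap, 0.67 for Umod and 0.50 for Calb1. The part of tubule or endothelial RNA in the deviations was not tested.

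Leukocyte markers give the setting for Tlr4, Tlr3 and Cd14, since macrophages are rich in Toll-like receptors and Cd14. In bulk RNA, fewer cells of a type and less RNA per cell cannot be told apart. Of 17 measured macrophage and monocyte markers 4 were above the threshold (23.5%) and 1 above the raised one (5.88%), against 58.0% and 32.7% of all named genes. The mean signal of the list was 7.05, 7.02 and 7.04 in samples 1, 2 and 3. The 1 that passed both was Mrc1, the mannose receptor, at 11.81 ± 0.10 (SD, n = 3). The others above the threshold, by less than 1, were the chemokine receptor gene Cx3cr1 at 8.03, the lysosomal gene Cd68 at 7.85 ± 0.07 and Aif1 at 7.75, all picked with their values known. The lowest were the chemokine receptor gene Ccr2 at 5.47 and Adgre1, which encodes the macrophage antigen F4/80, at 5.56. Further genes below the threshold, likewise picked with their values known, were these: the pan-leukocyte gene Ptprc had 5.95, the integrin gene Itgam 5.78, the growth factor receptor gene Csf1r 6.60 and the myeloid transcription factor gene Spi1 6.44, each the same in all samples. Of the markers not called above it, the nearest were C1qa at 7.46, Fcgr1 at 7.36 and C1qb at 7.12. C1qa missed the threshold on array 1 only, by a margin of -0.02. The part of macrophage RNA in the values of Tlr4, Tlr3 and Cd14 was not tested.

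Of 7 dendritic cell markers 2 were above the threshold (28.6%) and 1 above the raised one (14.3%), against 58.0% and 32.7% of all named genes. The interferon-induced gene Bst2 had 9.74 ± 0.10 (SD, n = 3) and passed the raised threshold as well, while Clec9a had 5.56 and Xcr1 6.32. None of 7 neutrophil markers passed, with Cxcr2 at 5.01 and Ly6g at 5.33 the lowest. Of 7 measured lymphocyte markers 1 passed (14.3%), again against 58.0% of all named genes. The B cell genes Cd79a at 5.19 and Ms4a1 at 5.64 were the lowest.

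**Figure D4:**
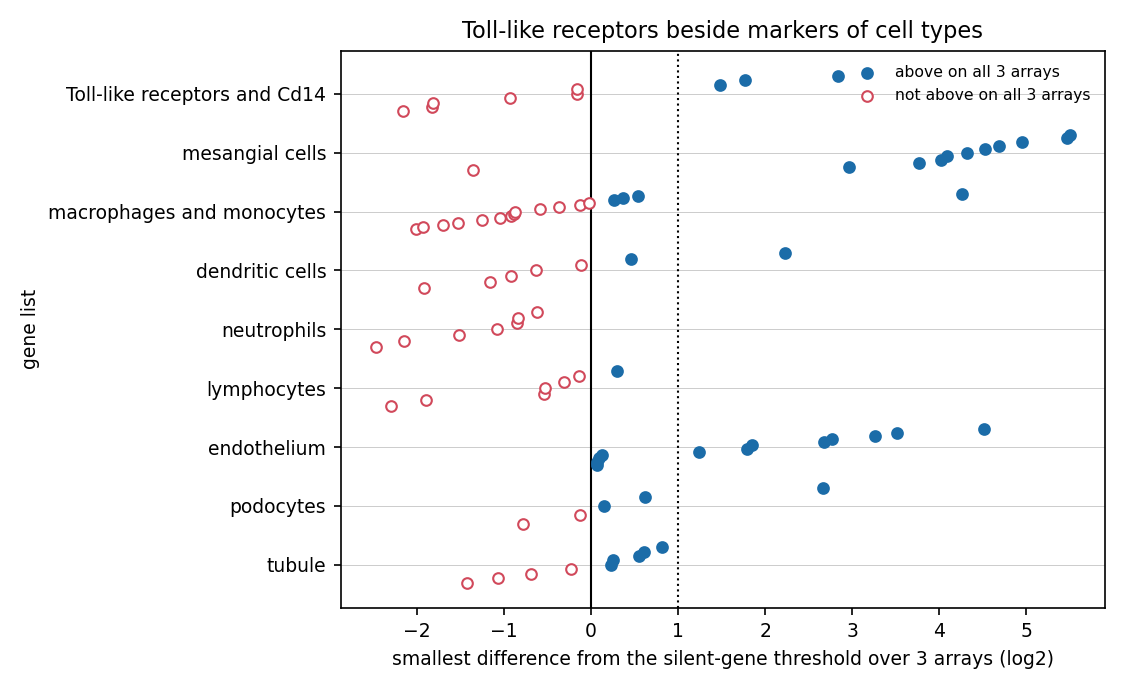
Smallest difference from the silent-gene threshold over the 3 arrays (horizontal axis, log2) for the receptors and for markers of 8 cell types (vertical axis), with the threshold as a solid line and the raised threshold as a dotted line. In the mesangial list 10 of 11 markers lie right of the dotted line and in the endothelial list 8 of 12 do, against 32.7% of all named genes. Most leukocyte markers lie left of the solid line.

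Markers of the labelled cells were present. Of 11 mesangial markers 10 passed the threshold and the raised one (90.9%), against 58.0% and 32.7% of all named genes. The highest were Ptn at 13.10 ± 0.12, Itga8 at 12.96 ± 0.01 and Agtr1a at 12.48 ± 0.05 (SD, n = 3 each). The lowest were Des, at 10.55 ± 0.11, and Tbx18, at 6.12, which did not pass. All 12 endothelial markers lay above the threshold and 8 above the raised one (66.7%), against 58.0% and 32.7% of all named genes. Endothelium is known to express Tlr4. The mean signal of the endothelial list was 9.39, 9.33 and 9.43 in samples 1, 2 and 3. Cd34 had 11.99, Eng 11.17 ± 0.17 and Tek 10.78 ± 0.12, while Tie1 at 7.55 and Kdr at 7.57 were the lowest. Tie1 passed the threshold by as little as 0.07 and Kdr by as little as 0.09. Pecam1 at 7.61 and Cdh5 at 7.66, picked with their values known, also lay close to background. They passed by as little as 0.07 and 0.13. The part of endothelial RNA in the values of Tlr4, Tlr3 and Cd14 was not tested. Of 5 measured podocyte markers 3 passed the threshold (60.0%), near the 58.0% of all named genes. Only 1 of them, Wt1 at 10.15 ± 0.08 (SD, n = 3), passed the raised one (20.0%), against 32.7%. The lowest were Nphs1 at 7.39 ± 0.06 and Ptpro at 6.75 ± 0.08, which did not pass. Of 9 tubule markers 5 passed the threshold (55.6%) and none the raised one on all 3 arrays, against 58.0% and 32.7% of all named genes. The lowest were Slc12a1 at 6.42 ± 0.03 and Fbp1 at 6.06. Umod and Kap were picked with their values known. Umod had 9.51, 9.18 and 8.22 and missed the raised threshold on array 3 only. Kap had 8.44, 8.51 and 7.17 and missed the threshold on array 3 only. The part of podocyte or tubule RNA in the receptor values was not tested either.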

How the data were processed

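Total RNA of the 3 samples was amplified in 1 round with a NuGEN kit, labelled with biotin and put on 1 array each, per the labels' protocols. The authors deposited log2 probe set signals, and the submitters' processing notes name Affymetrix Expression Console. Version, background correction and summary method were not given in the sources used here, and log base 2 was inferred from the range of 3.31 to 14.39. The array medians were 7.53, 7.56 and 7.54, and centring beyond this is unknown. Values were used as deposited, and the number of arrays limits their precision.

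The platform annotation listed 23410 of 35557 probe sets. Of these, 21789 had 1 symbol, 1621 had several and named no gene, and 12147 probe sets were unlisted. Symbols were updated by Entrez number (21698 matched RefSeq GRCm38.p6), and the probe set with the highest mean stood for a gene. Calls were computed with Python 3.11.15 and pandas 2.3.3. The rule was also run on values simulated from the silent genes, which checks the computation only and not the calls made here. Nothing was compared between groups, so no p-value is given, and protein sequences were not used here. Members, lists and thresholds were chosen with earlier results of these data known. By rule, all members were named, with the 3 highest and the 1 lowest mean of each pathway list, lists of up to 5 genes in full, target genes with an SD above 0.5, and of marker lists up to 3 genes above the raised threshold and the 2 lowest. The alternatives were other percentiles, silent families, probe set choices, centring, the mean of the arrays, and leaving out each sample.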

Additional observations from a re-analysis of the deposited data

How the results depend on the processing

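Tlr3, Tlr4 and Cd14 stayed above the threshold under all 11 alternatives run. For some of these the outcome was fixed for every member. Each member has 1 probe set with a single symbol, so taking the probe set with the lowest mean gave the same value. Centring an array moves genes and threshold alike. A gene already above on all 3 arrays also cannot fail at the 90th percentile, on the mean of the arrays or without 1 sample. The 99th percentile, the raised threshold and the olfactory receptors alone could have turned the calls of Tlr3, Tlr4 and Cd14. Adding probe sets with several symbols was not fixed in advance either, and it left the smallest margin of each member unchanged. The count of members above was 3 of 9 under each alternative except the 90th percentile threshold. There it was 5, as Tlr2 and Tlr9 joined, each with a smallest margin of 0.24. There 68.8% of all named genes passed. Of the 91 pathway genes 67 lay above the threshold, against 34 at the 99th percentile and 32 with the threshold raised by 1. Without replicate 1, 2 or 3 the pathway count ranged from 67 to 68 and the count of members was 3 throughout. The share of genes with a single value on all 3 arrays was 51.1%, and 39.4% among genes above the threshold only. Background correction and normalization could not be varied without scanner values. No paired analysis was possible because there was 1 group. The other 6 members lie where silent genes lie, so their absence from these cells is not shown, only that no signal above background was detectable.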
